A study of Mus musculus with 12 samples.

Results

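Transcripts of the growth hormone and IGF axis were read in bulk total RNA from the liver and brain of mice that lack Mettl5, whose product places an m6A mark on 18S rRNA, and of control mice. The group holds 10 of the 55487 genes counted: Ghr, Stat5b, Socs2, Igf1, Igf1r, Igfals, Igfbp1, Igfbp2, Igfbp3 and Igfbp4. They were chosen by name for their place in the pathway and by a measured value, the higher Igfbp2 counts of KO liver, so no p-value is given for a member in that contrast, and its counts of calls are printed only beside those of all genes. The 4 groups of 3 libraries were KO liver and KO brain (Mettl5-/-, mice A, C and F) and WT liver and WT brain (labelled WT, mice B, D and E). The KO allele came from Cre deletion of a floxed exon of Mettl5 in the whole body. The line was made with hybrid C57bl/6 and 129S6 ES cells, backcrossed to B6 and then crossed with a CMV-Cre line. Mice of both sexes were used, and the study gives an age range only for all its experiments together. The labels give no age, sex, litter, feeding state or time of day. The labels call the controls WT, whereas the study gives the controls of its mouse RNA sequencing as heterozygous (Mettl5+/-) in some legends and as wild type (Mettl5+/+) elsewhere, so WT is used here as the label and the controls may carry a KO allele. A mouse that lacks Mettl5 everywhere does not separate an effect within the liver from one that reached it through hormones or feeding.

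As background, growth hormone from the pituitary binds its receptor GHR on hepatocytes, and the kinase JAK2 then activates STAT5B, which drives transcription of Igf1, Igfals and Socs2. IGF1 made by the liver circulates mainly in a complex with IGFBP3 and the acid-labile subunit encoded by Igfals, and signals through IGF1R in other tissues. The remaining binding proteins carry IGF in smaller complexes, and Igfbp1 and Igfbp2 are known as liver transcripts that insulin restrains, with Igfbp1 a target of FoxO factors. The timing of growth hormone pulses also sets the male or female pattern of many liver genes in mice.

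The members lie on 6 chromosomes, none of them chromosome 2, which carries Mettl5. On mm10, Igfbp2 (ENSMUSG00000039323.18) lies at chr1:72824503-72852474 on the plus strand, with 5457 bases between it and Igfbp5. Igfbp1 (ENSMUSG00000020429.7, chr11:7197782-7202546, plus strand) and Igfbp3 (ENSMUSG00000020427.11, chr11:7206086-7213923, minus strand) point toward each other with 3539 bases between them. Igf1 (ENSMUSG00000020053.18) lies at chr10:87858265-87937042 on the plus strand. No member overlaps another gene on its own strand, and 1 member (Igf1) overlaps a gene on the opposite strand, Igf1os, which had 91 counts over all 12 libraries.

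RefSeq promoter windows on GRCm38.p6 (250 bases before to 50 after a start site) were at hand for 9 of the 10 members, as 14 windows, and Socs2 had no entry. Both strands were searched for 3 motifs whose matches do not overlap each other in the windows shown. TTCNNNGAA, the palindrome that STAT5 recognises, occurred in 2 of the 14 windows, both of Igfals, and in 8.3% of 32851 windows of all genes. CAAAACA, a form of the FoxO core (TGTTTTG on the other strand), occurred in 1 of the 14, that of Igfbp1, and in 6.28% of all windows. GGGCGG, the core of the GC box bound by Sp1 (CCGCCC on the other strand), occurred in 6 of the 14 and in 35.7% of all windows. The 3 windows below are shown because Igfbp2 and Igfbp1 are the binding proteins with the largest liver values of the genotype difference, and Igfals is the member that holds the STAT5 motif. Capitals mark the fixed letters of the motif matches. The Igfbp2 window (chr1:72824230-72824529, plus strand) is 67.0% G and C and has 3 GGGCGG matches, the nearest starting 37 bases before the start site. The Igfbp1 window (chr11:7197537-7197836, plus strand) has its CAAAACA match from 108 to 102 bases before the start. The Igfals window (chr17:24877981-24878280, plus strand) has TTCNNNGAA from 58 to 50 bases before the start. A match is a description of the letters and does not show that a factor binds there.
Igfbp2: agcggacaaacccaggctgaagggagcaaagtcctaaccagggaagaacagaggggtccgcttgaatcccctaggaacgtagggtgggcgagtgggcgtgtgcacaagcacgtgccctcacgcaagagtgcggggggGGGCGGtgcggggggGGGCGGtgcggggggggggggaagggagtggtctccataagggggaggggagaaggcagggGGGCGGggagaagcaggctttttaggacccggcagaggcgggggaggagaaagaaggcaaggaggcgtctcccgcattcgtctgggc
Igfbp1: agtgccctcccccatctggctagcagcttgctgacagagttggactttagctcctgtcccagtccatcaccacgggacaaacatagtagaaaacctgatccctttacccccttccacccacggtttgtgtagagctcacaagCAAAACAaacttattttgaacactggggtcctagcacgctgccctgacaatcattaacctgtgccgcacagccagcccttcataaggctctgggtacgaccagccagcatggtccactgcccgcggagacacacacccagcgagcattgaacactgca
Igfals: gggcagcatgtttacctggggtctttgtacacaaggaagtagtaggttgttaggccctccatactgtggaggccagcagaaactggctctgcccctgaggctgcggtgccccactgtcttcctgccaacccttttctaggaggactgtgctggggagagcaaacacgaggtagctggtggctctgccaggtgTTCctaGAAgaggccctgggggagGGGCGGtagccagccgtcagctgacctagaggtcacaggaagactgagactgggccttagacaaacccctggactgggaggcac

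Library totals ran from 14403309 to 21623180 counts. Levels within a tissue are given as CPM, counts scaled by the TMM library size, and levels compared between genes as FPKM, which also divides by exonic length. Mettl5 had 3.64 to 4.07 CPM in KO liver and 8.13 to 14.9 in WT liver, and 3.33 to 3.96 in KO brain and 5.02 to 9.09 in WT brain, so every KO library lay below every WT library of its tissue. Mice E (WT) and F (KO) had 116 to 336 Y-linked counts a library and the other mice 2183 to 3445, so each genotype held 1 mouse of the first kind and 2 of the second. Xist had 9446 to 19028 counts a library in E and F and 0 to 19 in the other mice. By these counts E and F were female and the others male, although the labels give no sex. Liver and brain markers matched the labels: 8 of 8 hepatocyte markers were called higher in WT liver than in WT brain, and 6 of 6 neuron markers lower. In these bulk tissues, fewer cells of a type and less RNA per cell cannot be told apart.

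In liver, Igf1, Ghr and Igfals overlapped between genotypes, whereas Igfbp1 and Igfbp2 were higher in every KO library than in every WT library. Igfbp2 had 530, 542 and 634 CPM in KO mice A, C and F and 258, 175 and 324 CPM in WT mice B, D and E. The groups did not overlap, and the lowest WT library was that of mouse D. Its log2 fold change of KO over WT was 1.17 (SE 0.22), a fold of 2.25. Igfbp1, which encodes a binding protein that responds within hours to feeding, had 321, 90.0 and 180 CPM in KO liver and 78.3, 61.0 and 56.5 in WT liver. KO mouse A was the highest and KO mouse C lay close to WT mouse B. The log2 fold change of Igfbp1 was 1.59 (SE 0.46), a fold of 3.01, and it ran from 1.05 to 1.94 when 1 mouse at a time was left out.

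The other binding proteins differed less. Igfbp4, the most abundant member in WT liver, had 1003, 1305 and 1483 CPM in KO liver and 1012, 1178 and 1093 in WT liver. The groups overlapped, with KO mouse A below all 3 WT mice and a log2 fold change of 0.21 (SE 0.17). Igfbp3, the carrier of the large circulating complex and a product of non-parenchymal liver cells, had 29.6, 24.5 and 27.1 CPM in KO liver and 24.0, 9.35 and 26.3 in WT liver. WT mouse D alone was low, and the log2 fold change of 0.44 (SE 0.36) came to 0.11 without it. Igfbp5, the neighbour of Igfbp2, had 7.59, 9.40 and 3.13 CPM in KO liver and 10.8, 5.83 and 15.0 in WT liver (log2 fold change -0.66, SE 0.47). Igfals had 60.0, 67.7 and 60.5 CPM in KO liver and 51.1, 54.9 and 65 in WT liver, which overlapped (log2 fold change 0.14, SE 0.14).

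Igf1 itself was nearly level between genotypes in liver. It had 539, 565 and 540 CPM in KO liver and 495, 575 and 503 in WT liver, so the KO values lay inside the WT range, with a log2 fold change of 0.06 (SE 0.13). Ghr had 512, 481 and 445 CPM in KO liver and 488, 515 and 447 in WT liver (log2 fold change -0.01, SE 0.14), and the sign of this value changed with the processing. Stat5b, the transducer, had 104, 85.5 and 106 CPM in KO liver against 79.3, 67.3 and 72.3 in WT liver, without overlap (log2 fold change 0.43, SE 0.14). Socs2, the feedback inhibitor that STAT5B induces, spread most of all members. It had 55.9, 9.68 and 47.1 CPM in KO liver and 1.55, 7.11 and 14.7 in WT liver, so KO mouse C lay within the WT range while KO mice A and F lay above it (log2 fold change 2.27, SE 1.07). It ran from 1.78 without WT mouse B to 3.14 without WT mouse E. Igf1r, low in hepatocytes, had 8.67, 7.39 and 9.02 CPM in KO liver and 4.63, 6.40 and 6.42 in WT liver, without overlap (log2 fold change 0.53, SE 0.21).

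Thus 9 of 10 members had a positive liver log2 fold change, with a median of 0.435 against -0.002 over the 14075 genes tested. All 3 KO libraries lay above all 3 WT libraries for 4 members (Igfbp1, Igfbp2, Stat5b and Igf1r), a pattern that 6.5% of all genes showed. No member was called at an adjusted p under 0.1 by edgeR's quasi-likelihood test, which called 0% of all genes in liver. At an unadjusted p under 0.05 the count was 4 members, against 7.33% of all genes. DESeq2 called 2 members, Igfbp2 and Igfbp1, and 1.1% of the genes it tested. Because the choice of the members used this contrast, nothing is read from these counts. Summed levels of the hepatocyte markers, mostly Alb, overlapped between genotypes (76380 to 82860 CPM in KO and 65830 to 83090 in WT). Of the 8 markers 5 had a positive log2 fold change, 3 a negative one, and 0 were called. Apoa1 lay higher in every KO library (7912 to 8591 CPM in KO and 4005 to 7404 in WT), and Tat lower (1020 to 1315 and 1661 to 1882). Of the 6 Kupffer cell markers 6 had a negative log2 fold change and 0 were called (126 to 252 CPM in KO and 182 to 311 in WT). Of the 6 stellate cell markers 5 had a positive one and 0 were called (296 to 396 CPM in KO and 262 to 310 in WT). Mitochondrial rRNA took 7.36% to 8.66% of the counts of KO liver and 10.7% to 16.9% of WT liver, and the log2 fold changes were 1.17 for Igfbp2 and 1.59 for Igfbp1 with it left out. The median liver log2 fold change ran from -0.12 in the 3515 genes lowest in GC to 0.07 in the 3515 highest, and the exons of Igfbp2 (62.1% GC) were above 98.6% of genes. With the offset for GC and length, Igfbp2 came to 1.07 and Igfbp1 to 1.63. The part of the cell types in the liver values was not tested.

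**Figure D1:**
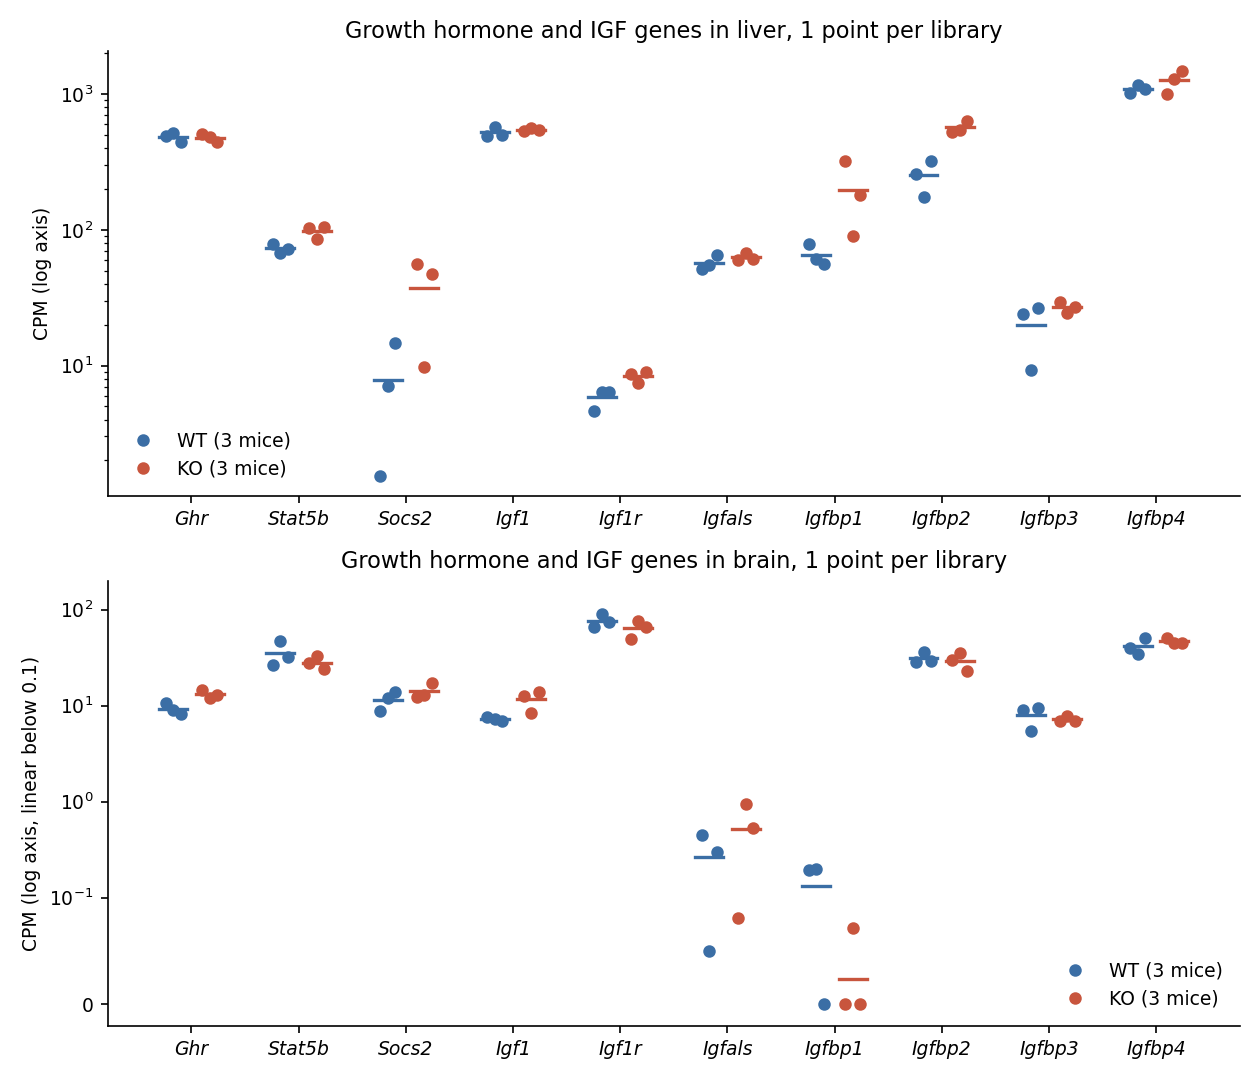
CPM (log axis, linear below 0.1 in the brain panel) of the 10 members in liver (top) and brain (bottom), with 1 point for each library, WT in blue and KO in red, and a line at each mean of 3. In liver Igfbp2 lay at 530 to 634 CPM in KO and 175 to 324 in WT, while Igf1 and Ghr overlapped, and in brain Igfals and Igfbp1 lay below 1 CPM.

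The sizes of the liver differences are also given, as a description, within the mice with many and those with few Y-linked counts. For the 4 members whose groups did not overlap, KO had to lie above WT in both. Igfbp2 was 2.47 times higher in KO mice A and C than in WT mice B and D, and 1.96 times higher in KO mouse F than in WT mouse E. For Igfbp1 these ratios were 2.95 and 3.18, for Stat5b 1.29 and 1.46, for Igf1r 1.46 and 1.41, and for Socs2 7.58 and 3.21. Igf1 gave 1.03 and 1.08, and Ghr 0.99 and 0.995. The ratios were less alike for Igfals (1.2 and 0.931), Igfbp3 (1.62 and 1.03) and Igfbp4 (1.05 and 1.36). The second ratio of each gene rests on 1 mouse a genotype and has no replicate check.

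The sexually patterned liver genes, whose levels follow the timing of growth hormone pulses, separated mice E and F from the other 4. Summed over the 15 male-biased genes listed, the level was 7320 and 10220 CPM in WT mice B and D, 7724 and 8264 in KO mice A and C, 718 in WT mouse E and 1154 in KO mouse F. Summed over the 15 female-biased genes it was 27.0 and 14.7 CPM in B and D, 14.9 and 9.35 in A and C, 3124 in E and 1361 in F. Both genotypes thus held both patterns. None of the genes tested was called between genotypes in liver. Of the male-biased genes 9 of 14 were positive (median 0.48), and of the female-biased genes 0 of 5 (median -0.53). The fit had no term for the 2 patterns, so these genes spread widely within each genotype and a call was hard to reach. Only 5 of the 15 female-biased genes passed the filter on low counts. Of those left out, Cyp2b13 reached 168 CPM in KO and 148 in WT, and Cyp3a41a 18.0 and 468. Mup20, a male urinary protein gene, had 1245, 1403 and 19.4 CPM in KO mice A, C and F and 1487, 2283 and 13.7 in WT mice B, D and E. Selenbp2, another male-biased gene, had the highest log2 fold change of its list, 2.94 (SE 1.25), with 407, 484 and 59.3 CPM in KO liver and 27.9, 86.6 and 9.25 in WT liver. Cyp2b9, a female-biased cytochrome P450, had 462 CPM in KO mouse F, 561 in WT mouse E and at most 5.06 in the rest. A1bg, named after its values were seen, had 16.1 CPM in F and 401 in E, a difference between 2 single mice.

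**Figure D2:**
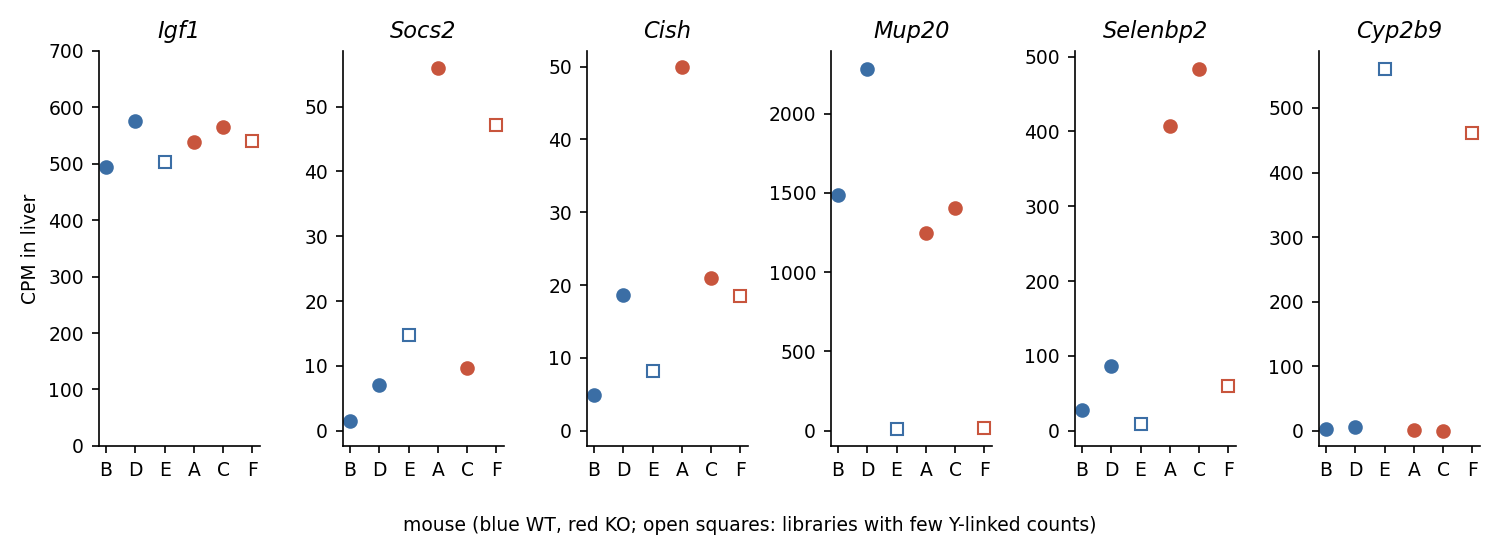
Liver CPM (linear axes, 1 for each gene) of Igf1, of the growth hormone feedback genes Socs2 and Cish, and of the sexually patterned genes Mup20, Selenbp2 and Cyp2b9, by mouse, WT in blue and KO in red, with open squares for the mice with few Y-linked counts. Igf1 stayed between 495 and 575 CPM, whereas Mup20 and Cyp2b9 separated mice E and F from the rest.

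Of the GH signalling partners, 7 of 14 tested in liver had a positive and 7 a negative log2 fold change, with a median of 0.01 and none called. Cish, like Socs2 a STAT5-induced inhibitor, had the highest, 1.5 (SE 0.66), with 49.9, 20.9 and 18.5 CPM in KO liver and 4.89, 18.6 and 8.23 in WT liver, where KO mouse F lay just under WT mouse D. Socs3, an inhibitor induced by cytokines, had 20.3 CPM in KO mouse A and 2.95 to 5.25 CPM in the other 5 livers. The lowest was Bcl6, a repressor that growth hormone lowers, with 23.6, 7.39 and 5.74 CPM in KO and 54.1, 7.68 and 14.0 in WT (log2 fold change -1.05, SE 1.01). Cux2, a female-patterned factor, followed at -0.69 (SE 2.22), being above 20 CPM in mice E and F alone. Of the other IGF genes, 7 of 9 tested were positive and 2 negative, none called. Irs2, which relays insulin and IGF1 signals, had the highest value, 1.41 (SE 0.45), with 235, 75.5 and 116 CPM in KO and 68.0, 39.8 and 52.6 in WT, without overlap. Igf2 had at most 0.06 CPM in any liver library.

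Irs2 also belongs to the list of FoxO target genes that insulin restrains, as it does Igfbp1. In that list 7 of 10 genes were positive and 3 negative in liver, with a median of 0.09 and none called. Pck1, the gluconeogenic enzyme PEPCK, had 1795, 1449 and 2171 CPM in KO and 1515, 1622 and 1393 in WT (log2 fold change 0.26, SE 0.18). Pdk4, a fasting-induced kinase, had 9.82, 18.0 and 23.4 CPM in KO and 40.0, 8.20 and 23.5 in WT (-0.48, SE 0.64). In KO mouse A, the mouse with the highest Igfbp1, Socs2, Socs3, Cish and Irs2 were also the highest of the 6 livers, and Pdk4 was below 4 of the other 5.

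In brain, no member was called between genotypes, and the 2 that stood highest were Igf1 and its upstream receptor Ghr. Igf1 had 12.6, 8.42 and 13.9 CPM in KO brain and 7.60, 7.23 and 6.93 in WT brain. The groups did not overlap, and KO mouse C lay nearest to WT (log2 fold change 0.68, SE 0.22, adjusted p 0.367). Ghr had 14.6, 12.1 and 12.9 CPM in KO brain and 10.7, 8.98 and 8.14 in WT brain, again without overlap (log2 fold change 0.51, SE 0.18, adjusted p 0.394). Of the 8 members that passed the filter on low counts these 2 had KO above WT, and 8.41% of the 17188 genes tested did. edgeR called 0 of the 8 members and 0.064% of all genes, 2 members (11% of all genes) reached an unadjusted p under 0.05, and DESeq2 called 0 members and 1.58% of its genes.

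The remaining members overlapped between genotypes in brain. Igfbp2 had 29.8, 35.4 and 22.7 CPM in KO and 28.1, 35.8 and 29.1 in WT, a log2 fold change of -0.09 (SE 0.19, adjusted p 0.87) whose sign changed with the mouse left out. Igfbp4 had 51.0, 45.1 and 45.0 CPM in KO and 39.5, 34.4 and 50.8 in WT (0.18, SE 0.17, adjusted p 0.675). Igfbp3 differed by -0.14 (SE 0.24), Socs2 by 0.29 (SE 0.22), Stat5b by -0.34 (SE 0.22) and Igf1r by -0.26 (SE 0.18). Stat5b and Igf1r were thus on the positive side in liver and the negative side in brain. Igfals and Igfbp1 were left out by the filter, with at most 13 and 4 counts in any brain library.

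Several other measures moved with genotype in the brain libraries. Of 8 olfactory bulb markers 8 were higher in KO and 6 were called, with summed levels of 81.0 to 110 CPM in KO and 22.0 to 31.0 in WT, where no WT library had over 3 counts of S100a5 or Tbx21. Of 8 cerebellar markers 8 lay lower in every KO library and 0 were called (207 to 607 CPM in KO and 961 to 1448 in WT). Of 10 choroid plexus markers 10 had a negative log2 fold change and 0 were called (127 to 195 CPM in KO and 244 to 409 in WT), while microglial markers overlapped (113 to 130 CPM and 111 to 127). The part of brain regions was not tested in the Igf1 and Ghr values, in the other brain genotype values, or in the liver minus brain values. Exonic GC content was 38.0% in Igf1 and 40.9% in Ghr, and the 4292 genes lowest in GC had a median brain log2 fold change of 0.21. With an offset for GC and length, the values of Igf1 and Ghr came to 0.38 and 0.32. Mitochondrial rRNA took 21.4% to 31.6% of the counts of KO brain and 7.63% to 17.7% of WT brain.

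Of the growth hormone release genes, 6 of 15 passed the filter in brain, with 3 positive, 3 negative and none called. Of the pituitary hormone transcripts, 4 were highest in the KO brain library of mouse F, which had 16.9 CPM of Gh, 25.8 of Prl, 9.82 of Pomc and 0.923 of Cga. Tshb, the thyrotropin subunit, had 0 counts there and 2 to 5 in the other brain libraries. The other 5 brain libraries had at most 0.322 CPM of Gh and 0.1 of Prl, and 0.703 to 3.01 of Pomc. Without mouse F the brain log2 fold change was 0.53 for both Igf1 and Ghr. Sst, the somatostatin transcript that restrains growth hormone release, had 78.3, 70.1 and 70.7 CPM in KO and 65.5, 68.2 and 94.3 in WT brain, and Ghrh had at most 3 counts in every brain library.

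No gene of the pathway lists was called between genotypes in brain. Of the GH signalling partners 6 were positive and 7 negative (median -0.11), and Jak2, the kinase bound to GHR, had 67.1, 57.8 and 61.4 CPM in KO and 53.2, 40.5 and 45.9 in WT (log2 fold change 0.42, SE 0.14, adjusted p 0.392), without overlap. In liver Jak2 ran the other way, with 18.69 to 24.15 CPM in KO and 25.67 to 30.49 in WT, also without overlap (log2 fold change -0.34, SE 0.14). Bcl6 had 10.9 to 17.7 CPM in KO and 15.9 to 30.9 in WT, which overlapped (-0.72, SE 0.27, adjusted p 0.408). Of the other IGF genes 6 were positive and 9 negative. Among them Igfbpl1, a gene related to the binding proteins, had 1.38, 1.80 and 1.25 CPM in KO and 0.838, 0.1 and 0.251 in WT, without overlap (1.95, SE 0.64, adjusted p 0.373). Of the FoxO target genes 2 were positive and 7 negative, and Foxo3 had 53.4, 103 and 72.6 CPM in KO and 82.6, 148 and 107 in WT (-0.56, SE 0.27, adjusted p 0.478). Irs2 had 38.1, 70.3 and 49.2 CPM in KO brain and 48.6, 90.0 and 70.6 in WT brain (-0.41, SE 0.27, adjusted p 0.573).

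**Figure D3:**
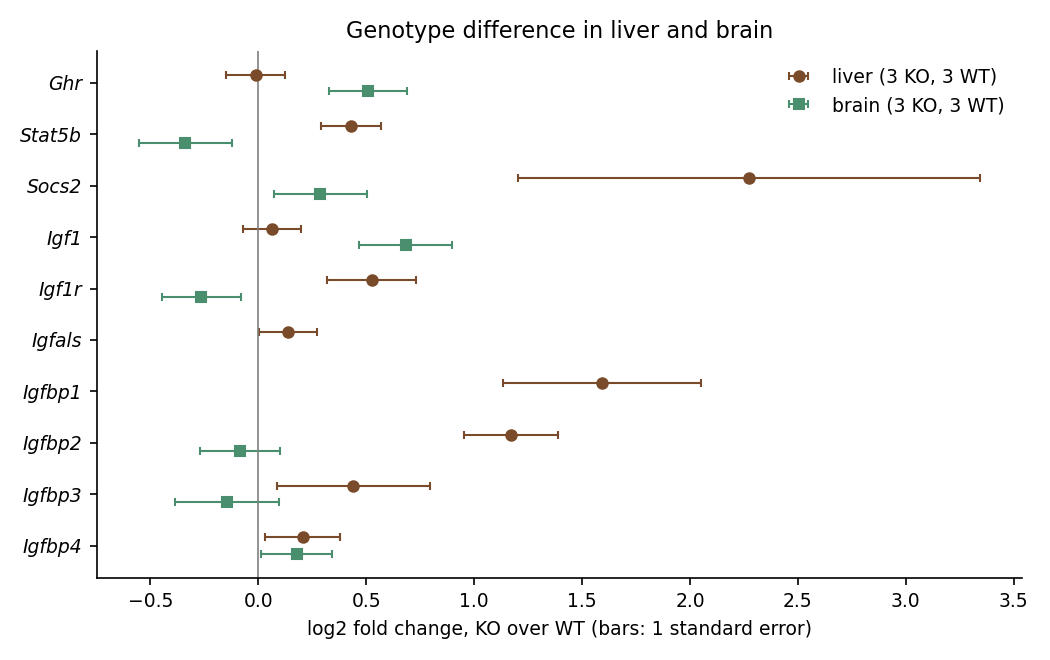
Log2 fold change of KO over WT (x axis) for each member in liver (brown circles) and brain (green squares), with bars of 1 standard error, from 3 KO and 3 WT libraries a tissue. Igfbp2 stood at 1.17 in liver and -0.09 in brain, and Igfals and Igfbp1 have no brain point because they did not pass the filter.

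The genotype difference of the members was compared between tissues as the liver value minus the brain value over all 12 libraries. No member was called, and 0% of the 18944 genes were. At an unadjusted p under 0.05 the counts were 5 members and 10.6% of all genes. DESeq2 called 1 member, Igfbp2, and 2.08% of the genes it tested. By edgeR the Igfbp2 difference was 1.29 (SE 0.32). Those of Igf1r, Stat5b, Igfbp3 and Igfbp4 were 0.82, 0.80, 0.61 and 0.06, and those of Igf1 and Ghr -0.58 and -0.49. The value of Socs2 was 2.03, and 2.75 without WT mouse E. Igfbp1 and Igfals, which rest on few brain counts, had 3.65 and -0.85, and 5.88 and -0.21 without KO mouse C. This comparison holds the liver contrast by which the members were chosen, so nothing is read from these counts.

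Which tissue carried each transcript was tested in a fit of all 12 libraries, a contrast that did not choose the members. The liver counts of Igfbp2 did, so its tissue values are a description, although it is among the members counted. In WT mice 9 of 10 members were called, 8 higher in liver and Igf1r lower, against 78.4% of all genes called (34.8% higher and 43.6% lower). In KO mice 10 of 10 were called, 9 higher in liver and Igf1r lower, against 80% of all genes (35.5% higher and 44.6% lower). Igfals and Igfbp1 passed the filter of this fit through liver alone, so they had to differ.

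Igf1 had a mean of 66.4 FPKM ± 5.09 (SD, n = 3) in WT liver and 0.578 ± 0.0254 in WT brain, a log2 difference of 6.84 (SE 0.22, adjusted p 5.14e-12). Ghr had 67.1 FPKM ± 4.73 in WT liver and 0.807 ± 0.111 in WT brain (log2 difference 6.38, SE 0.19, adjusted p 2.93e-12). Ligand and growth hormone receptor thus stood at nearly the same level per length in liver, and both were lower in brain. In KO mice their log2 differences between tissues were 6.26 (SE 0.21) and 5.89 (SE 0.18). Igf1r ran the other way, with 0.434 FPKM ± 0.0724 in WT liver and 3.59 ± 0.608 in WT brain (log2 difference -3.05, SE 0.21, adjusted p 7.51e-09), and -2.22 (SE 0.20) in KO. With the offset for GC and length these came to -1.53 and -0.87, those of Igf1 to 8.46 in WT and 8.26 in KO, and those of Ghr to 7.49 and 7.25, all still called. Stat5b was higher in liver by 1.71 (SE 0.20) in WT and 2.51 (SE 0.21) in KO.

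Among the binding proteins, Igfbp4 was higher in WT liver than in WT brain by 5.39 (SE 0.23), and Igfbp3 by 2.0 (SE 0.32) on the log2 scale, with adjusted p values of 5.16e-11 and 5.72e-05. The Igfbp2 difference was 3.70 (SE 0.25) in WT. In KO mice it was 4.98 (SE 0.26), and those of Igfbp4 and Igfbp3 were 5.45 (SE 0.23) and 2.62 (SE 0.33). Igfbp1 had 3468 counts over the 3 WT livers and 7 over the 3 WT brains, a ratio per library size of 829 (95% counting interval 402 to 2060). In KO mice it had 10376 and 1 counts, a ratio of 13000 (2340 to 515000), where the 1 brain count was from mouse C. Igfals had 2996 counts in WT liver and 14 in WT brain, a ratio of 358 (213 to 656), and 3366 and 22 in KO, a ratio of 192 (127 to 307). Of those 22 counts 13 were from mouse C, without which the fitted log2 difference of Igfals in KO went from 7.57 to 8.21. That of Igfbp1 in KO was 13.2, and ran from 12.3 without mouse A to 15.5 without mouse C, where no brain count was left and the value is no bound. These intervals cover counting error only. Socs2 was the member whose tissue order was unclear, with a log2 difference of 0.09 (SE 0.72, adjusted p 0.915) in WT and 2.12 (SE 0.72, adjusted p 0.0203) in KO, which came to an adjusted p of 0.164 without mouse A.

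**Figure D4:**
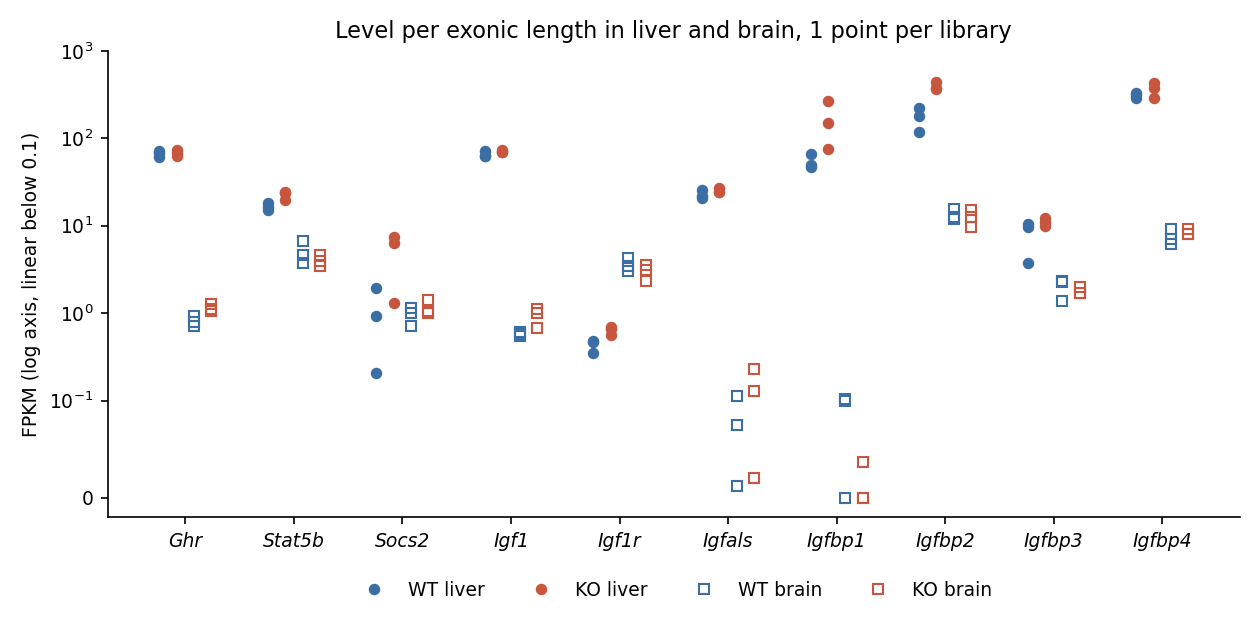
FPKM (log axis, linear below 0.1) of the 10 members in WT liver, KO liver (filled circles), WT brain and KO brain (open squares), with 1 point for each library. Igf1 and Ghr lay at 61.8 to 72.8 FPKM in every liver, and Igf1r was the member with every brain library above every liver library.

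By mean FPKM, the order in WT liver was Igfbp4 (311), Igfbp2 (172), Ghr (67.1), Igf1 (66.4), Igfbp1 (53.8), Igfals (22.6), Stat5b (16.5), Igfbp3 (8.0), Socs2 (1.02) and Igf1r (0.434). The neighbours Ghr and Igf1, Igf1 and Igfbp1, and Socs2 and Igf1r overlapped between libraries. In KO liver Igfbp2 (394) and Igfbp4 (367) overlapped in first place and Igfbp1 (165) came next, ahead of Igf1 (70.9) and Ghr (67.8). In brain Igfbp2 was the highest member in both genotypes (13.3 FPKM in WT and 12.5 in KO), followed by Igfbp4, Stat5b and Igf1r, and Igf1 stood eighth of the 10. Stat5b and Igf1r, and Socs2 and Ghr, overlapped between libraries in both genotypes, as did Igfbp4 and Stat5b in WT brain and Ghr and Igf1 in KO brain. Igfals and Igfbp1, the lowest, also overlapped in both.

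The make-up of the binding proteins differed by tissue. Summed over Igfbp1 to Igfbp7, WT liver had 602 FPKM ± 51.5 and KO liver 1000 ± 107 (SD, n = 3 each), with 555 to 657 and 892 to 1106 in single libraries. WT brain had 63.3 ± 6.50 and KO brain 58.1 ± 4.32. Igfbp2 made up 28.2% ± 6.23 of the sum in WT liver and 39.5% ± 2.64 in KO liver, Igfbp4 52.0% ± 6.91 and 36.8% ± 6.91, and Igfbp1 9.0% ± 1.95 and 16.3% ± 9.50. The liver shares are a description, since the contrast chose the members. In WT brain the leading binding proteins were Igfbp6 (30.2% ± 3.70) and Igfbp5 (28.6% ± 6.18), which together came to under 1% in every liver. Igfbp2 took 20.9% ± 1.29 in WT brain and 21.4% ± 3.56 in KO brain, a difference of 0.44 percentage points (exact permutation test, two-sided, p = 0.9, where the smallest possible is 0.1). In single mice its share was 29.8%, 21.3% and 33.4% in the livers of WT mice B, D and E and 21.1%, 22.1% and 19.6% in their brains. In KO mice A, C and F it was 36.7%, 42.0% and 39.9% in liver and 22.8%, 24.0% and 17.3% in brain. The liver share was the higher in 5 of 6 mice, WT mouse D being the exception, and no test is given because the liver values of Igfbp2 chose the members.

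Set against the binding proteins, Igf1 amounted to 10.7%, 13.0% and 9.66% of their summed FPKM in WT liver mice B, D and E and to 6.96%, 8.16% and 6.34% in KO mice A, C and F. These ranges did not overlap, with nearly level Igf1 under a larger sum, as a description of the same liver contrast. In brain Igf1 amounted to 1.06%, 0.831% and 0.867% in WT and 1.80%, 1.06% and 1.98% in KO.

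**Figure D5:**
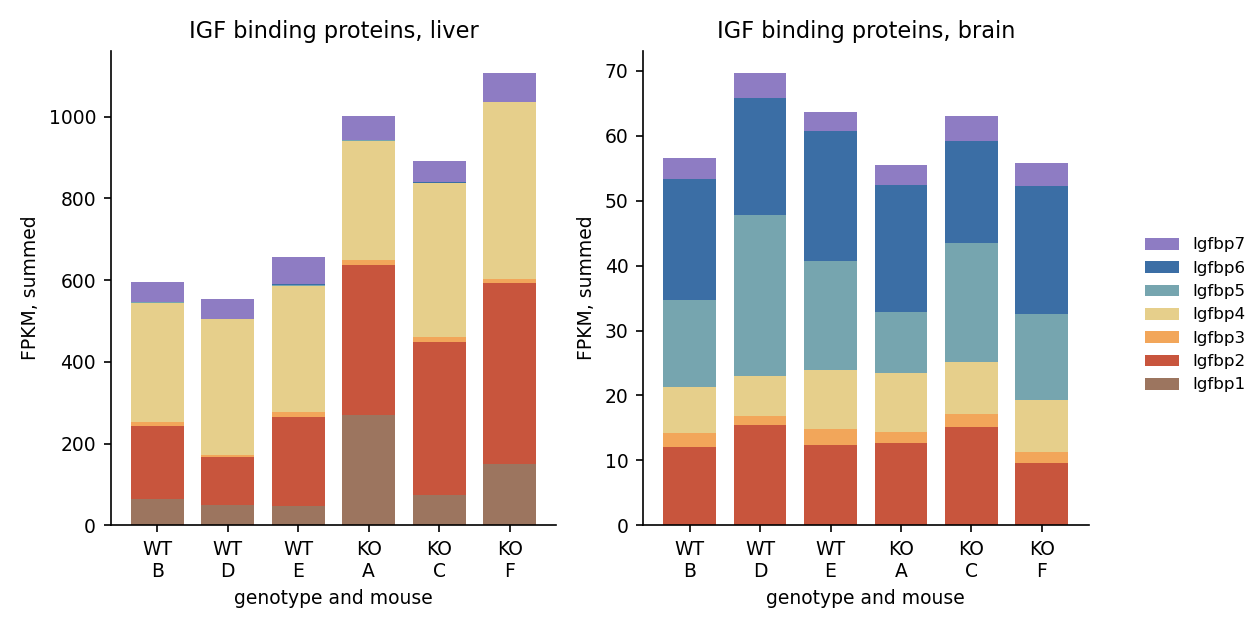
Summed FPKM of Igfbp1 to Igfbp7 (linear axes from 0, a different scale for each tissue), as stacked bars with 1 bar for each library. The liver bars reached 555 to 657 FPKM in WT and 892 to 1106 in KO, mostly Igfbp4, Igfbp2 and Igfbp1, while in WT brain Igfbp5 and Igfbp6 were the largest pieces.

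The genes whose log2 CPM followed Igfbp2 most closely over the 6 liver libraries were Usp54 (Pearson r 0.991), Ada, a purine enzyme (0.987), Eng, an endothelial TGF-beta co-receptor (0.981), Gm37101 (0.976) and Jcad (0.976), among 14075 genes. For Igf1 in liver they were Akr1c6 (0.985), Elmo3 (0.976), Tut1 (0.974), Dok1 (0.969) and Med16 (0.968). In brain, Igfbp2 was followed most closely by AA914427 (0.999), Zfp41 (0.995), Stard3 (0.985), Pgap3 (0.983) and Ppm1f (0.983), and Igf1 by Arhgap4 (0.995), Jkamp (0.987), Glt8d1 (0.981), Gm37250 (0.981) and Taf4b (0.977), among 17188 genes. The 5 genes differed between tissues for both. These are the top values among all genes tested, over 6 points that share genotype and depth, and are a description.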

How the data were processed

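RNA was measured in 12 libraries, liver and brain of 6 mice, grouped by the genotype, tissue and mouse letter of the labels. The authors made stranded total RNA libraries with 100 bp single-end reads, trimmed them with Trimmomatic, aligned them to mm10 with STAR 2.7.3a and counted exonic reads per gene by strand with featureCounts, after FastQC 0.11.5. The deposited values are raw counts, not normalised (14403309 to 21623180 per library). Gene symbols came from GENCODE, whose coordinates were the same for 54435 of 54435 shared identifiers. FPKM used the exonic length in the deposited table.

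Counts were fitted with edgeR 4.0.16 in R 4.3.3 (TMM, filterByExpr, robust quasi-likelihood F test) over all genes, 6 libraries a tissue for genotype and 12 for tissue, with Benjamini-Hochberg adjustment; genes under an adjusted p of 0.1, the study's threshold, were called. The script was tested on simulated data. The 10 members, the gene lists and the tests were chosen with earlier results of these data known. All members are named in every comparison. Of each list, the text gives up to 2 of the highest and lowest liver values, and for likeness the 5 highest correlations. The liver values of Jak2 were added because it is named in brain. No pathway gene was called in brain, and those named there were chosen after their values were seen. Shares were compared by exact permutation in SciPy 1.17.1. p-values measure the spread between mice.

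Liver and brain of a mouse share its letter, so they are paired by animal. Over 12574 genes, their deviations from the group means had Pearson correlations of -0.0389 to 0.140. Alternatives were DESeq2 1.42.0, RLE size factors, other filters, mitochondrial rRNA left out, a GC and length offset, Y-linked transcripts as a covariate, 12 libraries in 1 fit, mouse as a replicate block and each mouse left out. Genome sequence other than the RefSeq promoter windows and protein sequences were not used here.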

Additional observations from a re-analysis of the deposited data

How the results depend on the processing

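No alternative run called a member between genotypes in brain. In liver the number of genes called was 0, and it was 171 with DESeq2, 443 with no filter, 82 with the Y-linked covariate, 3 with all 12 libraries in 1 fit, and 0 to 87 with 1 mouse left out (87 without WT mouse D). Members called in liver were 2 with DESeq2, 1 with no filter and 1 with the Y-linked covariate. In brain the number of genes called was 11, and it was 269 with DESeq2, 1000 with no filter, 87 with the GC and length offset and 2 to 23 with 1 mouse left out (2 without WT mouse E, 23 without KO mouse C). Of the liver minus brain differences, 1 member was called with DESeq2, among 369 genes, and 1 with no filter, among 183 genes, against 0 genes by edgeR with the filter. The causes were not tested.

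Some values near 0 changed sign. Ghr in liver was 0.0011 with no filter, 0.113 with the GC and length offset, 0.0167 with 12 libraries in 1 fit and -0.0658 to 0.0398 with 1 mouse left out. In brain Igfbp2 was 0.0913 with the GC and length offset and -0.25 to 0.0699 with 1 mouse left out, and Igfbp3 -0.36 to 0.0044. Socs2 between WT liver and WT brain was -0.0134 with DESeq2, -0.0061 with RLE size factors, -0.25 with mouse as a replicate block and -0.62 to 0.41 with 1 mouse left out. Igfbp4 in the liver minus brain difference was -0.17 with the GC and length offset and -0.11 to 0.27 with 1 mouse left out. The brain difference in Igfbp2 share ran from -0.868 to 2.47 points. The replicate block changed no member's call. The number of members called between KO liver and KO brain was 9 to 10 with 1 mouse left out. The GC and length offset moved the median of all genes between WT tissues from -0.21 to 0.29, and RLE size factors to -0.30. With the GC and length offset the tissue differences of Ghr, Igf1, Igf1r, Igfals, Igfbp2 and Socs2 in both genotypes, and of Igfbp4 in WT, moved by over 1.5 times, with none of their calls lost.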
